A study of Astyanax mexicanus with 6 samples.

Results

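The chaperones, their helpers and the sensors of the unfolded protein response were followed in 2 liver-derived cell lines of the Mexican tetra Astyanax mexicanus. The genes were chosen by symbol alone: a gene counted if its symbol began like those of the heat shock proteins HSPA, HSPB, HSP90 and HSPH1, the mitochondrial pair hspd1 and hspe1, the heat shock factors, the DNAJ proteins, the CCT chaperonin, the PDIA disulfide isomerases, the BAG cochaperones, calnexin, calreticulin, hyou1, manf, xbp1, ern1, eif2ak3, or the degradation genes herpud, sel1l and edem. Of 27420 genes in the table, 119 met this rule, and 108 reached the 0.2 TPM in 1 or more libraries that was needed for a test. TPM is the share of a gene in all transcripts of a library, after division by its length, scaled to a total of 1000000. The symbols hsf2bp (2 genes) and hspb11 begin like those of chaperones but in mammals belong to a meiotic and a ciliary protein, and are kept apart here. Whether the fish genes of these symbols have those functions was not tested. The rule also covered symbols that begin with atf6 or hsp70, but none of the 119 genes carried one, so these were not analysed here.

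SFL was the line from the liver of surface fish, and CFL the line from the liver of the Pachón cavefish, both taken from fish of about 150 days post fertilization. The Pachón fish had been starved for 1 week before dissection and the surface fish had not. The medium was of like composition, but in the early passages it held embryo extract of surface fish for SFL and of Pachón fish for CFL. Both lines are clonal. In the karyotype of the study SFL had the normal chromosome number and CFL was hyperdiploid. From a PCR assay for B chromosomes the study took the fish behind CFL to be male, and the sex behind SFL could not be tested. Each line gave 3 bulk RNA-seq libraries: passages 45 (replicate 1) and 46 (the other two) were sampled in SFL, and passages 50 (replicate 1) and 51 (the other two) in CFL. The replicates were taken as cultures of 1 clone per line, which the labels do not name, so the p-values measure the spread between cultures and not between fish. Line, clone, karyotype, any difference in donor sex, starvation of the donor fish, embryo extract and passage cannot be told apart in this design.

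Proteins made in the cytosol are folded by HSP70, HSP90 and the CCT ring, and HSP70 is driven by DNAJ proteins and released by BAG and HSP110 proteins. Secreted and membrane proteins fold in the endoplasmic reticulum (ER) with BiP (hspa5), GRP94 (hsp90b1), the lectin chaperones calnexin and calreticulin, and the disulfide isomerases, while mitochondria hold their own HSP70 (hspa9) and HSP60 (hspd1). When unfolded proteins gather in the ER, the sensors ern1 (IRE1), eif2ak3 (PERK) and ATF6 raise the folding and degradation genes of the ER, a program that is prominent in liver because hepatocytes secrete most plasma proteins. These roles were worked out mainly in mammals and yeast.

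The libraries were alike in breadth, with 13254 to 13721 genes at 1 TPM or more in a library. Spearman's rho was taken across all 27420 genes, of which 4173 were at 0 in every library. It was 0.946 to 0.961 between SFL libraries, 0.960 to 0.971 between CFL libraries and 0.871 to 0.888 between the lines. Hepatocyte markers were low in both lines: of 16 marker genes in the table only cps1 had at least 1 TPM in all 6 libraries, ttr was at 0 in all, and hnf4a reached no more than 0.04 TPM. The summed hepatocyte markers stood at 89.1 to 140.9 TPM in SFL and 32.0 to 54.0 TPM in CFL, and 5 of the 16 were called higher in SFL, against 11.7% of all genes tested. Most of the SFL sum came from rbp4 (48.6, 110.4 and 68.9 TPM in SFL replicates 1 to 3). Nearly all of the CFL sum came from cps1, which was higher in all CFL libraries without being called. It had 24.0, 18.99 and 2.35 TPM in SFL and 30.8, 52.8 and 33.3 TPM in CFL. Markers of simple epithelium, led by the keratins krt8 and krt18, summed to 6424 to 8676 TPM in SFL and 1423 to 1719 TPM in CFL. The table holds 8 of these symbols, krt8 with 2 genes, and 5 genes were called higher in SFL, again against 11.7% of all genes tested. Against these, hnf1bb was called higher in CFL, at 2.29 to 12.3 TPM in SFL and 163 to 210 TPM in CFL (log2 fold change -4.76). The markers epcam and sox9b and 1 of the krt8 genes did not exceed 0.02, 0.03 and 0.08 TPM in any library. Stellate cell and fibroblast markers summed to 1937 to 5697 TPM in SFL and 1445 to 2343 TPM in CFL, most of it in SFL from tagln (1108 to 4239 TPM). Calls on that list went both ways, with col1a1a higher in SFL and pdgfra and pdgfrb higher in CFL (log2 fold changes 1.97, -3.50 and -2.82). Of 6 endothelium markers, 5 were below 1 TPM in every library. The other, kdrl, had 75.8 to 88.9 TPM in SFL and 51.9 to 71.1 TPM in CFL and was not called. Blood cell and macrophage markers were nearly absent, at 0.5 to 0.8 TPM in SFL and 1.5 to 1.7 TPM in CFL. The part of these cell type differences in the values that follow was not tested, and in bulk RNA fewer cells of a type and less RNA per cell cannot be told apart.

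The share of transcripts taken by these genes overlapped between the lines, but the ER lumen genes among them took more of it in every CFL library than in any SFL library. Of the 19 tested ER lumen genes of the rule 7 were called higher in CFL (36.8%, against 8.88% of all genes). The constitutive cytosolic HSP70 hspa8 was higher in SFL, and in SFL replicate 3 the mitochondrial hspd1, hspe1 and hspa9 stood far below their level in the other 5 libraries. The 119 genes summed to 17728, 19586 and 12287 TPM in SFL replicates 1 to 3, against 16998, 17030 and 15974 TPM in CFL replicates 1 to 3, which is 1.77%, 1.96% and 1.23% of all TPM in SFL and 1.70%, 1.70% and 1.60% in CFL. The lines overlapped, with SFL replicate 3 the lowest library of the 6. In no library did fewer than 99 of the genes reach 1 TPM.

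Genes were called at a limma adjusted p under 0.05 with a fold change of 2 or more, SFL over CFL. Of the 108 genes tested, 8 (7.41%) were called higher in SFL and 15 (13.9%) in CFL. Across all 18489 genes tested the shares were 11.7% in SFL and 8.88% in CFL. With scaling of the libraries by median ratios, and likewise with quantile normalization, 5 were called higher in SFL and 18 in CFL. All genes moved toward CFL as well, with a median log2 fold change of 0.07 unscaled, -0.002 under median ratios and -0.019 under quantile normalization. The shares of all genes called under these scalings are not given here. At any fold change the adjusted p passed in 18 genes higher in SFL (16.7%, against 19.5% of all genes) and 21 higher in CFL (19.4%, against 15.2% of all genes). The 3 libraries of a line lay entirely above those of the other in 29 genes higher in SFL (26.9%, against 29.8% of all genes) and 30 higher in CFL (27.8%, against 23.1% of all genes), the 23 called genes among them. Of these 23 genes, 14 kept an adjusted p under 0.05 in each of the 6 fits that left out 1 library. Among the 14, pdia3, dnajb12b and edem2 still lost their call in at least 1 of those fits, by falling below a fold change of 2. The share of all called genes that kept their call is not given here. Of the 16 genes that passed the adjusted p below a fold change of 2, bag3 and hspa12b kept it in each of those fits and the other 14 did not. Without SFL replicate 3 the calls numbered 7 in SFL and 13 in CFL, against 12.3% and 9.57% of all 18231 genes in that fit. The median log2 fold change of the 108 genes was -0.05, against 0.07 for all genes. Only 3 tested genes (hspb15 and both hsf2bp genes) passed the filter on low values through SFL alone, and none was called.

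**Figure D1:**
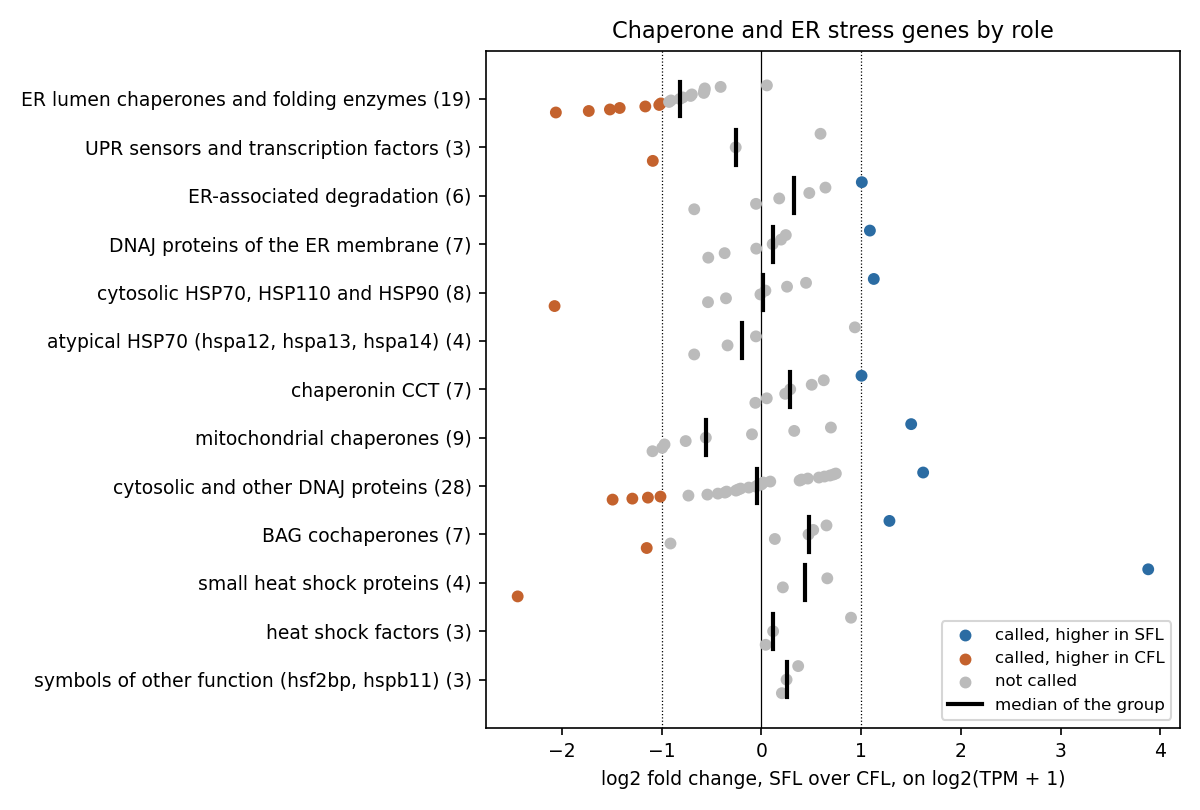
Log2 fold change (SFL over CFL) of the 108 tested genes on log2(TPM + 1), by role, with the number of genes in parentheses. Points right of 0 are higher in SFL, dotted lines mark a fold change of 2, black bars are medians of a role. The ER lumen genes lie left of 0 apart from pdia7 at 0.06, with a median of -0.82, while most other roles straddle 0.

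Among the roles of the rule, the chaperones and folding enzymes of the ER lumen stood furthest toward CFL. Of 19 tested chaperones and folding enzymes of the lumen, 7 (36.8%) were called higher in CFL and 0 in SFL, against 8.88% and 11.7% of all genes. At any fold change 10 (52.6%, against 15.2% of all genes) passed the adjusted p in CFL. In 13 of the 19 (68.4%, against 23.1% of all genes) the CFL libraries did not overlap SFL and stood higher. At an unadjusted p under 0.05 the counts were 0 in SFL and 15 in CFL, against 26% and 20.5% of all genes. The mean was higher in CFL for 18 of the 19, the exception being pdia7, and the median log2 fold change was -0.82, and -0.80 without SFL replicate 3. Summed over the list, the libraries gave 1623, 2429 and 1710 TPM in SFL replicates 1 to 3 and 3754, 3787 and 3934 TPM in CFL replicates 1 to 3, a ratio of the means of 0.502. Each CFL library thus lay above each SFL library. The calls on the list ranged from 4 without SFL replicate 1 to 9 without SFL replicate 2. They were 9 under both scalings, where the median of all genes also lay further toward CFL. Folding genes of the ER outside the rule went both ways. Those higher in all SFL libraries included p4hb, ero1a and ero1b (log2 fold changes 0.69, 1.38 and 0.30). Those higher in all CFL libraries included uggt1, ganab and txndc5 (-0.84, -0.76 and -0.47), while erp44 and prkcsh overlapped. Of these, p4hb, uggt1 and ganab passed the limma adjusted p (0.0476, 0.0152 and 0.0415).

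Calnexin (canx), the membrane-bound lectin chaperone that holds newly made glycoproteins, had 171, 216 and 124 TPM in SFL replicates 1 to 3, against 591, 517 and 554 TPM in CFL replicates 1 to 3. The lowest CFL library held more than 2 times the highest SFL library, and the difference between the lines was -1.73 (SE 0.23) on the log2 scale (limma adjusted p = 0.00196). Its soluble partner is calreticulin, for which calr3b was the only gene of the rule. No gene carried the symbol calr, calra or calrb, so a calreticulin gene under another name would be missed. The gene calr3b had 200.4, 341 and 248 TPM in SFL and 428, 381 and 342 TPM in CFL. This was a smaller log2 difference of -0.57 (SE 0.23) with a limma adjusted p of 0.0964, although the lines only just did not overlap. The ratio of canx to calr3b was accordingly 0.85, 0.63 and 0.50 in SFL and 1.38, 1.36 and 1.62 in CFL. Thus canx was more abundant than calr3b in every CFL library and less abundant in every SFL library, which describes these 2 genes alone.

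The protein disulfide isomerases form and reshuffle disulfide bonds. The largest difference among them was in PDIA6, 1 of 2 genes of this symbol (ENSAMXG00000013951), with 16.4, 40.4 and 22.3 TPM in SFL and 93.6, 109 and 116 TPM in CFL (log2 difference -2.06 (SE 0.32), limma adjusted p = 0.00384). Its second copy, pdia6 (ENSAMXG00000034339), had 61.4, 110.4 and 81.1 TPM in SFL and 164, 157 and 177 TPM in CFL (-1.01, SE 0.23, limma adjusted p = 0.0167). Its call was lost without any of SFL replicate 1 (log2 fold change -0.80) or CFL replicates 1, 2 and 3 (adjusted p = 0.057, 0.0584 and 0.0582), and in the later passages alone (adjusted p = 0.0954). Reads of near-identical copies may be divided between them by the abundance estimate, so the split between the copies is uncertain, while both lay higher in all CFL libraries. The isomerase of the calnexin cycle, pdia3, reached 313, 488 and 429 TPM in SFL and 806, 901 and 1018 TPM in CFL, a log2 change of -1.16 (SE 0.21) at adjusted p = 0.00728. It was the most abundant gene of the list, and it fell just short of a fold change of 2 without SFL replicate 1 (log2 fold change -0.98). The isomerase pdia4 had 25.99, 58.4 and 52.1 TPM in SFL and 81.6, 81.7 and 84.5 TPM in CFL (-0.93, SE 0.31, adjusted p = 0.0555). The 3 CFL libraries were almost level and SFL replicate 1 was low, and the gene was called without SFL replicate 2 (-1.14, adjusted p = 0.0426) and under both scalings. Of the remaining isomerases, pdia5 had 124, 145 and 70.8 TPM in SFL and 137, 155 and 195 TPM in CFL, pdia7 and pdia8 averaged 2.59 and 0.48 TPM in SFL and 2.45 and 1.02 TPM in CFL, and none of these 3 passed the test. The isomerase pdia2, known from the pancreas of mammals, was at 0 in all SFL libraries and reached no more than 0.01 TPM in CFL.

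GRP94 (hsp90b1), the HSP90 of the ER, had 246, 421 and 326 TPM in SFL and 729, 629 and 622 TPM in CFL. All CFL libraries were above all SFL libraries, with a log2 change of -1.02 (SE 0.23) at adjusted p = 0.0144, a call that was lost without CFL replicate 1 (limma adjusted p = 0.0574), CFL replicate 2 (adjusted p = 0.0541) or SFL replicate 1 (log2 fold change -0.83) and in the later passages alone, replicates 2 and 3 of each line (adjusted p = 0.0925). The secreted stress protein manf had 58.8, 91.1 and 58.96 TPM in SFL and 172, 190.2 and 191 TPM in CFL, a log2 change of -1.42 (SE 0.21) at adjusted p = 0.00319 that held in all fits without 1 library. BiP (hspa5), the HSP70 of the ER and the usual readout of the unfolded protein response, differed less than these. It had 311, 373 and 191 TPM in SFL replicates 1 to 3 and 371, 448 and 438 TPM in CFL replicates 1 to 3. SFL replicate 2 lay above CFL replicate 1, so the lines overlapped, and the log2 fold change of -0.57 (SE 0.27) did not pass the test (adjusted p = 0.141). Its nucleotide exchange factor hyou1 had 22.7, 39.05 and 25.7 TPM in SFL and 44.1, 48.99 and 48.1 TPM in CFL, without overlap and just outside the threshold (-0.71, SE 0.23, adjusted p = 0.0507).

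The lumenal DNAJ cochaperones of BiP in the rule also had their higher means in CFL. By contrast, sec63 (ERdj2), a membrane partner of BiP outside the rule, had 30.02, 34.6 and 30.1 TPM in SFL and 23.6, 26.2 and 21.2 TPM in CFL (0.40, SE 0.16, adjusted p = 0.101). Of the lumenal genes, dnajb9a (ERdj4) had 3.85, 5.18 and 2.92 TPM in SFL and 10.6, 15.7 and 13.2 TPM in CFL, a log2 change of -1.52 (SE 0.24) at adjusted p = 0.00426. Its paralog dnajb9b had 12.9, 15.8 and 14.3 TPM in SFL and 22.2, 34.1 and 27.9 TPM in CFL, which passed the adjusted p (0.0158) but not a fold change of 2 (-0.91, SE 0.21) except without CFL replicate 1 (-1.06) and under both scalings. The disulfide reductase dnajc10 (ERdj5) had 10.3, 12.8 and 11.01 TPM in SFL and 18.03, 24.9 and 19.9 TPM in CFL (-0.82, SE 0.19, adjusted p = 0.0174). There are 2 copies of dnajc3, an inhibitor of PERK in mammals. For dnajc3b the values were 25.6, 35.3 and 29.9 TPM in SFL and 45.1, 46.9 and 43.95 TPM in CFL (-0.58, SE 0.17, adjusted p = 0.0407). For dnajc3a they were 6.27, 9.23 and 4.39 TPM in SFL and 8.98, 13.4 and 13.4 TPM in CFL, where SFL replicate 2 overlapped CFL replicate 1 (-0.79, SE 0.29, adjusted p = 0.076), and without SFL replicate 2 the gene was called (-1.02, adjusted p = 0.0397). ERdj3 (dnajb11), with 12.3, 26.4 and 15.2 TPM in SFL and 28.4, 30.7 and 26.04 TPM in CFL, overlapped and did not pass (adjusted p = 0.0985).

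**Figure D2:**
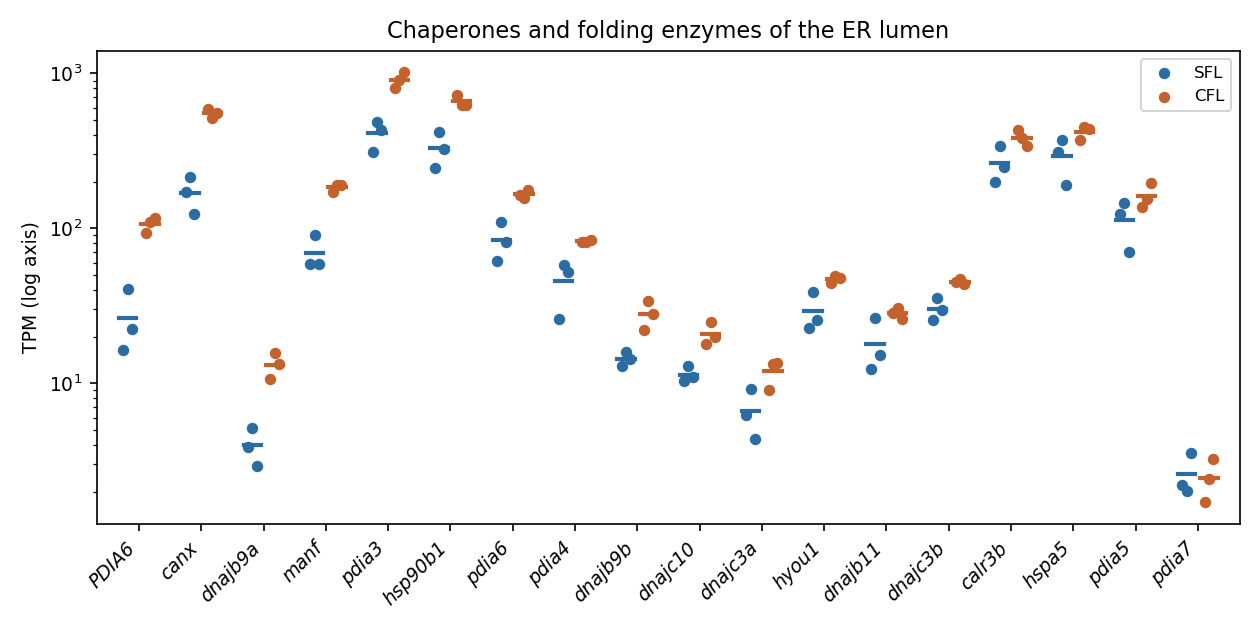
TPM (log axis) of the 18 ER lumen genes with a mean of at least 2 TPM, ordered by log2 fold change. Points are the 3 libraries of SFL (blue, left) and of CFL (orange, right), bars are means. PDIA6, canx, dnajb9a and manf show the widest gaps, and hspa5 has SFL replicate 2 at 373 TPM above CFL replicate 1 at 371 TPM.

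The sensors of the unfolded protein response were not higher in the same line. PERK (eif2ak3), the kinase that slows translation, had 20.8, 16.7 and 13.2 TPM in SFL and 28.3, 39.3 and 43.8 TPM in CFL, so every CFL library was higher (log2 fold change -1.09, SE 0.24, adjusted p in limma = 0.0147). This call was lost without SFL replicate 3 (-0.94), CFL replicate 2 (adjusted p = 0.0662) or CFL replicate 3 (adjusted p = 0.0531). IRE1 (ern1), the endonuclease that splices xbp1, went the other way, with 12.7, 12.5 and 14.8 TPM in SFL and 8.75, 9.45 and 7.36 TPM in CFL (0.59, SE 0.18, adjusted p = 0.0414), without overlap but under a fold change of 2, and its adjusted p was over 0.05 in each fit that left out 1 library (up to 0.115). Its target xbp1, which encodes the transcription factor of that branch, had 70.1, 67.4 and 57.5 TPM in SFL and 62.6, 101 and 73.9 TPM in CFL, and the lines overlapped (-0.26, SE 0.22, adjusted p = 0.383). TPM per gene does not separate spliced from unspliced xbp1.

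Among the 6 degradation genes of the ER in the rule, 1 was called, in SFL (16.7%, against 11.7% of all genes). EDEM proteins trim mannose from glycoproteins that fail to fold and mark them for export. Of them edem2 had 14.5, 19.8 and 18.4 TPM in SFL and 7.13, 9.40 and 8.16 TPM in CFL (1.01, SE 0.20, adjusted p = 0.00904). It fell below a fold change of 2 without CFL replicate 1 (0.92), SFL replicate 2 (0.92) or SFL replicate 3 (0.97) and under both scalings (0.91 and 0.88). Its relative edem1 had 9.95, 12.5 and 8.82 TPM in SFL and 5.68, 6.80 and 6.31 TPM in CFL (0.64, SE 0.19, adjusted p = 0.0412), without overlap, and edem3 overlapped between the lines (0.18, SE 0.25, adjusted p = 0.605). The stress-inducible membrane protein herpud1 had 13.2, 17.4 and 26.6 TPM in SFL and 25.96, 30.99 and 32.9 TPM in CFL. SFL replicate 3 reached into the CFL range, and the log2 fold change was -0.67 (SE 0.27) with adjusted p = 0.0955, but -0.93 with adjusted p = 0.015 without that library. Its paralog herpud2 was higher in all SFL libraries without passing the test (0.48, SE 0.16, adjusted p = 0.0612). The ligase adaptor sel1l overlapped between the lines, at 17.97, 19.5 and 17.6 TPM in SFL and 17.4, 19.9 and 20.04 TPM in CFL.

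A list of 48 further genes, which the symbol rule leaves out, was read beside these. It holds genes of the unfolded protein response and of degradation. It also holds genes of protein entry into the ER (the sec61, sec62, sec63 and ssr genes) and folding enzymes such as p4hb, so its shares describe this mixed list. Of 47 tested, 5 were called higher in SFL (ddit3, cdnf, crebrf, ube2j2 and 1 copy of ssr2) and 5 in CFL (syvn1, creld2, ssr3, ppp1r15b and 1 copy of ssr4, annotated SSR4). This is 10.6% each way, against 11.7% in SFL and 8.88% in CFL of all genes, and the median log2 fold change was 0.03. The calls of ddit3, cdnf and SSR4 held in all 6 fits that left out 1 library. The call of ppp1r15b was lost without CFL replicate 2 and that of syvn1 without SFL replicate 3, each just under a fold change of 2 (log2 fold changes -0.94 and -0.998). The levels of ppp1r15b were low, at 0.28, 0.29 and 0.03 TPM in SFL and 0.94, 3.04 and 1.71 TPM in CFL. Those of crebrf were low as well, at 2.37, 1.86 and 5.62 TPM in SFL and 0.89, 0.70 and 0.62 TPM in CFL. The call of creld2 was lost without CFL replicate 1 or 2 (adjusted p = 0.0636 and 0.0631). The call of ube2j2 was lost without CFL replicate 3 or SFL replicate 2 or 3 (0.93, 0.99 and 0.93), and those of ssr3, the ssr2 copy and crebrf were lost in 3, 3 and 4 of the 6 fits. The largest of these was ddit3 (CHOP), the pro-apoptotic factor induced by PERK, with 135, 86.2 and 199 TPM in SFL replicates 1 to 3 and 23.4, 28 and 18.4 TPM in CFL replicates 1 to 3. Each SFL library was at least 3 times the highest CFL library (log2 fold change 2.48, SE 0.33, adjusted p = 0.00197), in the direction opposite to eif2ak3. The ratio of ddit3 to hspa5 was 0.43, 0.23 and 1.04 in SFL and 0.063, 0.063 and 0.042 in CFL. The factor atf4a, which acts between PERK and CHOP, had 641, 519.6 and 566 TPM in SFL and 576, 589 and 525 TPM in CFL (log2 fold change 0.03, SE 0.16, adjusted p = 0.905). Its target chac1 varied within both lines, at 716, 537 and 219.7 TPM in SFL and 534, 578 and 334 TPM in CFL, and trib3 had 76.8, 52.98 and 64.8 TPM in SFL and 81.2, 94.1 and 96.8 TPM in CFL (-0.49, SE 0.19, adjusted p = 0.0874).

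The ubiquitin ligase syvn1 (HRD1), which works with sel1l, had 24.1, 31.3 and 21.2 TPM in SFL and 49.4, 58.7 and 60.4 TPM in CFL (-1.12, SE 0.20, adjusted p = 0.00621). The glycoprotein folding sensor uggt1, which sends clients back to calnexin, was also higher in all CFL libraries, at 13.9, 20.3 and 17.9 TPM in SFL and 33.6, 30.4 and 30.6 TPM in CFL (-0.84, SE 0.19, adjusted p = 0.0152). The ER-resident protein creld2 had 14.5, 33.01 and 19.8 TPM in SFL and 60.5, 55.2 and 47.6 TPM in CFL (-1.31, SE 0.30, adjusted p = 0.0161). In contrast, p4hb, the founding disulfide isomerase, whose symbol the rule does not hold, was higher in all SFL libraries, with 504, 772 and 515 TPM in SFL and 322, 392 and 378 TPM in CFL (0.69, SE 0.22, adjusted p = 0.0476), and its adjusted p stayed under 0.05 in 1 of the 6 fits that left out 1 library. The manf paralog cdnf was low in SFL, at 1.07 to 2.24 TPM, and listed at 0 in all 3 CFL libraries.

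**Figure D3:**
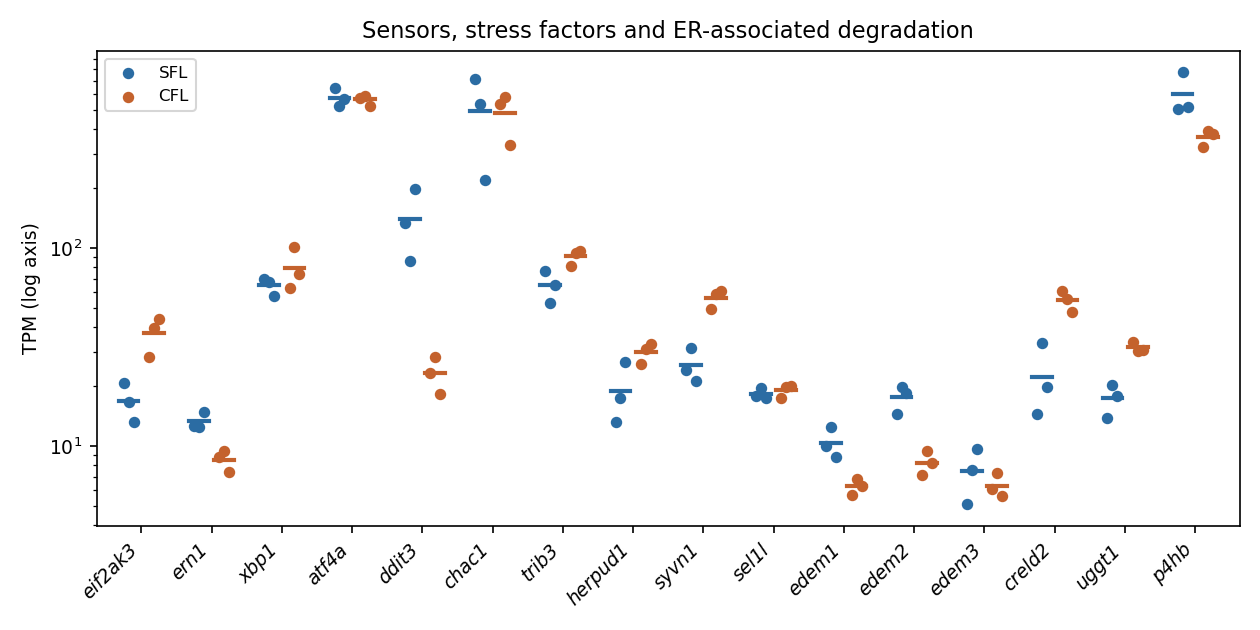
TPM (log axis) of sensors, stress factors and degradation genes, with 3 SFL libraries (blue, left) and 3 CFL libraries (orange, right) per gene and bars at the means. The genes atf4a, ddit3, chac1, trib3, syvn1, creld2, uggt1 and p4hb are outside the symbol rule. The SFL points of ddit3 at 86.2 to 199 TPM lie above the CFL points at 18.4 to 28.0 TPM, and those of eif2ak3 and syvn1 lie below.

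In the cytosol hspa8 (HSC70), the gene of the group with the highest mean TPM over the 6 libraries, was higher in SFL. In CFL replicates 2 and 3 hsp90ab1 stood above it. The values of hspa8 were 4685, 3600.0 and 2641 TPM in SFL replicates 1 to 3, against 1809, 1675 and 1410.1 TPM in CFL replicates 1 to 3. The SFL libraries spread widely but all lay above CFL (log2 fold change 1.13, SE 0.25, adjusted p in limma = 0.0143). The call was lost without CFL replicate 2 (adjusted p = 0.0554) or SFL replicate 1 (log2 fold change 0.93) and in the later passages alone (adjusted p = 0.0667). The related gene hspa8b, at a far lower level, had 7.57, 5.06 and 16.4 TPM in SFL and 26.9, 48.6 and 47.9 TPM in CFL (-2.07, SE 0.43, adjusted p = 0.0113, 0.0511 without CFL replicate 2 and 0.057 in the later passages alone). The difference of hspa8b was thus opposite in sign to that of hspa8, and reads of the 2 may be shared between them by the abundance estimate. Set against BiP, hspa8 was 15.1, 9.66 and 13.8 times as abundant per length in SFL and 4.88, 3.74 and 3.22 times in CFL.

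The libraries of both HSP90 genes overlapped between the lines. The constitutive hsp90ab1 had 1581, 2361 and 1341 TPM in SFL and 1687, 1691 and 1615 TPM in CFL, where SFL replicate 2 was high and the CFL libraries were nearly level (0.04, SE 0.24, adjusted p = 0.908). The sign of this small difference turned under median-ratio scaling (-0.07). The stress-inducible hsp90aa1.2 had 148, 187 and 70.95 TPM in SFL and 149, 226 and 123 TPM in CFL, with SFL replicate 3 the lowest (-0.36, SE 0.40, adjusted p = 0.515, and 0.05 on the log2 scale without that library). The HSP110 genes hspa4a, hspa4b, hspa4l and hsph1, which exchange nucleotides on HSP70, overlapped between the lines, with log2 fold changes of 0.45, 0.26, -0.01 and -0.54 and adjusted p of 0.169 to 0.977. Of these, hsph1 stood at 4.84, 3.03 and 4.22 TPM in SFL and 4.49, 4.76 and 10.8 TPM in CFL, where CFL replicate 3 was alone in exceeding 5 TPM. The inducible HSP70 gene hspa1b was at 0.05 TPM or less in every library and was not tested.

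Among the atypical HSP70 genes hspa12b had 2.97, 4.14 and 4.22 TPM in SFL and 1.29, 1.76 and 1.40 TPM in CFL, without overlap (log2 fold change 0.94, SE 0.19, adjusted p = 0.0095), and it reached a fold change of 2 without CFL replicate 2 (1.02) or SFL replicate 1 (1.06). The paralog hspa12a, the microsomal hspa13 and the ribosome-associated hspa14 overlapped, with adjusted p of 0.181 to 0.892.

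The CCT chaperonin folds actin and tubulin and is built of 8 subunits, of which the rule holds 7 and leaves out tcp1. Its genes were among the highest here, at 166 to 1040 TPM per library for the 7. Summed, the 7 had 4612, 5308 and 3849 TPM in SFL and 3791, 3547 and 3523 TPM in CFL, with every SFL library above every CFL library, and the median log2 fold change was 0.29. Only cct8 was called, in SFL, which is 14.3% of the 7, against 11.7% of all genes. It had 488, 507 and 402 TPM in SFL and 288, 256 and 166 TPM in CFL (1.004, SE 0.24, adjusted p = 0.0197). It sat on the fold threshold, and its call was lost without CFL replicate 2 (adjusted p = 0.0564), CFL replicate 3 (log2 fold change 0.77), SFL replicate 1 (adjusted p = 0.0523) or SFL replicate 2 (adjusted p = 0.0569), under both scalings (0.90 and 0.89) and in the later passages alone (adjusted p = 0.0724). The subunit cct6a also passed the adjusted p, with 655, 776 and 640.5 TPM in SFL and 461, 459.9 and 417 TPM in CFL (0.63, SE 0.16, adjusted p = 0.023). The other 5 subunits of the rule did not pass, at log2 fold changes of 0.50 for cct5, 0.29 for cct2, 0.24 for cct4, 0.05 for cct3 and -0.06 for cct7, and cct3 turned sign under both scalings (-0.05 and -0.11). The eighth subunit, tcp1, had 1179.9, 1277 and 1029 TPM in SFL and 934, 808 and 725 TPM in CFL (0.50, SE 0.18, adjusted p = 0.0678). Although the subunits enter the ring in equal number, their transcripts did not stand at equal levels: the highest of the 8 exceeded the lowest 2.65, 2.52 and 2.56 times in SFL and 3.25, 3.15 and 4.37 times in CFL.

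**Figure D4:**
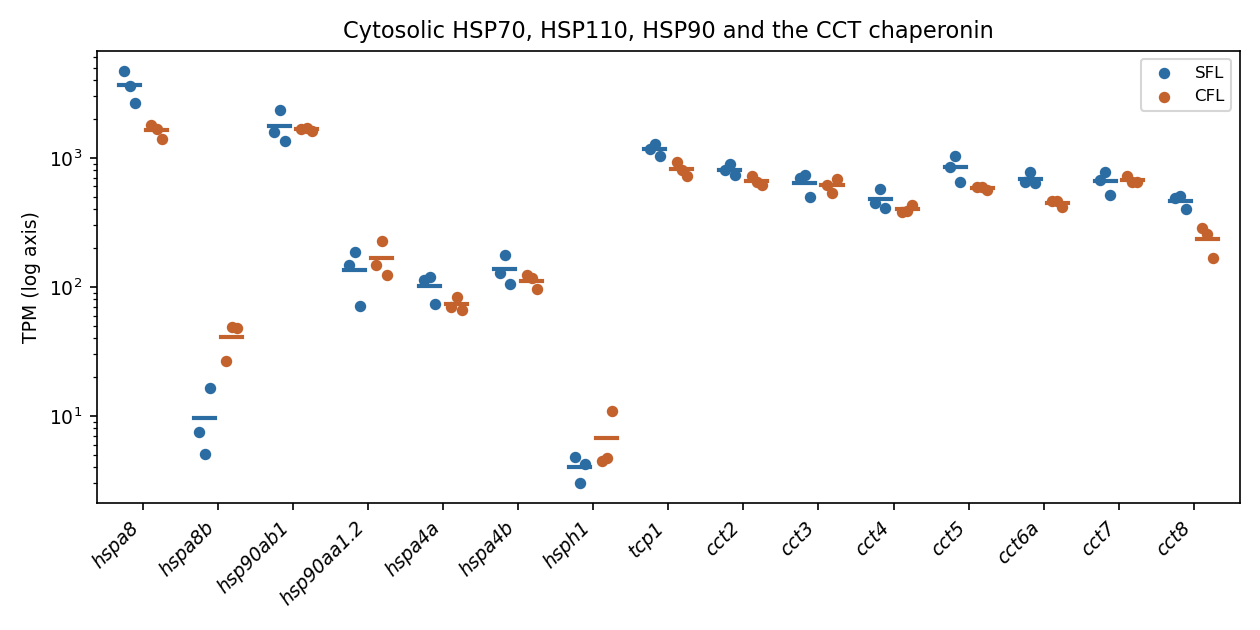
TPM (log axis) of cytosolic HSP70, HSP110 and HSP90 genes and of the 8 CCT subunits, with 3 SFL libraries (blue, left) and 3 CFL libraries (orange, right) per gene and bars at the means. The gene tcp1 is outside the symbol rule. The pairs of point clouds part for hspa8, tcp1, cct2, cct5, cct6a and cct8 (SFL above) and for hspa8b (CFL above), and overlap for the other genes.

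The mitochondrial chaperones were set apart by a library more than by a line. HSP60 (hspd1), the folding chamber of the matrix, had 979.8, 1327 and 172 TPM in SFL replicates 1 to 3 and 1099, 1353 and 1139.8 TPM in CFL replicates 1 to 3. Its lid hspe1 (HSP10) had 1126, 1247 and 267 TPM in SFL and 1499, 1501 and 1328 TPM in CFL. The HSP70 of mitochondria, hspa9 (mortalin), had 550.2, 512 and 142 TPM in SFL and 756, 802 and 644 TPM in CFL. In all 3 genes SFL replicate 3 was the outlying library, while SFL replicates 1 and 2 lay within the CFL range or below it by a much smaller step. The log2 fold changes were -0.97 (SE 0.72) for hspd1, -0.99 (SE 0.57) for hspe1 and -1.09 (SE 0.51) for hspa9, with limma adjusted p of 0.328, 0.215 and 0.14. Without SFL replicate 3 they were -0.06, -0.28 and -0.46, with adjusted p of 0.818, 0.208 and 0.0749. The chamber and lid genes, which lie next to each other in the RefSeq annotation AstMex3_surface, were low together in that library, with an hspd1 to hspe1 ratio of 0.87, 1.06 and 0.64 in SFL and 0.73, 0.90 and 0.86 in CFL.

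The same library was low for the cochaperones that serve mitochondrial import and hspa9. The import motor protein dnajc15 had 109.5, 72.5 and 26.4 TPM in SFL and 106, 107 and 92.8 TPM in CFL, and dnaja3b (TID1) had 39.1, 44.8 and 10.8 TPM in SFL and 32.7, 32.4 and 22.4 TPM in CFL. A second gene annotated dnaja3b was at 0 throughout. Of 91 genes of the group with a mean of at least 5 TPM in SFL, 5 stood in SFL replicate 3 under 1/3 of the mean of SFL replicates 1 and 2, and these were hspd1, hspe1, hspa9, dnajc15 and dnaja3b, all mitochondrial. Across all 10065 genes of that level the share was 3.17%. The median ratio of SFL replicate 3 to the mean of the other 2 was 0.279 over the 8 mitochondrial chaperones at this level, 0.808 over the 91 and 0.9995 over all genes of the level, and hspd1 lay within the lowest 0.974% of them. A further list of 20 mitochondrial chaperones and proteases outside the rule had a median ratio of 0.615 over 17 genes, with TIMM44 at 42.8, 35.1 and 7.49 TPM, afg3l2 at 255, 171 and 64.1 TPM and lonp1 at 55.96, 64.4 and 21.1 TPM in SFL replicates 1 to 3. Other genes of the list were not low in that library, among them clpp, clpxa, clpxb and yme1l1b at ratios of 0.89, 0.98, 1.02 and 1.04. The second copy timm44 had a ratio of 0.66. In that list yme1l1a was called higher in SFL and timm8a in CFL, 5.26% of the 19 tested each way, against 11.7% and 8.88% of all genes. Both calls were lost in some fits that left out 1 library, yme1l1a without CFL replicate 1 or SFL replicate 1 or 2 (log2 fold changes 0.92, 0.95 and 0.93) and timm8a without CFL replicate 2 (adjusted p = 0.0612) or SFL replicate 3 (-0.96). SFL replicate 3 carried the same line and passage labels as SFL replicate 2, and the cause of its low values was not tested. It also stood apart in the summed markers of stellate cells and fibroblasts (5697 TPM, against 2894 and 1937 TPM in SFL replicates 1 and 2) and of simple epithelium (8676 TPM, against 6916 and 6424 TPM). In that library anxa4 reached 463 TPM, against 143 and 155 TPM in SFL replicates 1 and 2, and hnf1ba 35.9 TPM, against 8.68 and 8.35 TPM. Whether these markers bear on the low values was not tested.

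An exception among the mitochondrial genes of the rule was dnajc19, a subunit of the inner membrane import motor. It stood in SFL replicate 3 at 0.84 of the mean of SFL replicates 1 and 2. It had 69.3, 74.4 and 60.4 TPM in SFL and 25.3, 20.6 and 24.3 TPM in CFL, so the lowest SFL library was more than 2 times the highest CFL library. Its log2 fold change was 1.50 (SE 0.17) with adjusted p = 0.00105, the lowest of the whole group, and the call held in all 6 fits that left out 1 library. The cristae protein dnajc11a was higher in all SFL libraries, at 79.05, 112 and 61.2 TPM in SFL and 51.6, 51.8 and 46.6 TPM in CFL (0.70, SE 0.24, adjusted p = 0.0621, and 0.90 with adjusted p = 0.0165 without SFL replicate 3). Its paralog dnajc11b was higher in all CFL libraries, at 1.25 to 2.12 TPM in SFL and 2.84 to 3.26 TPM in CFL.

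**Figure D5:**
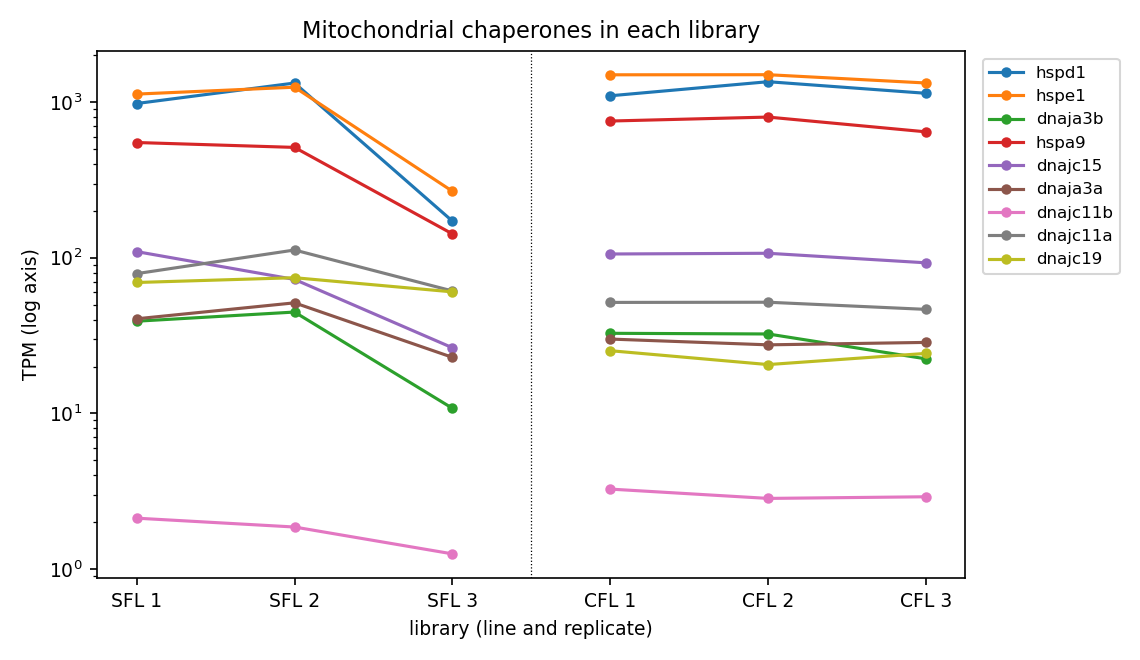
TPM (log axis) of the 9 tested mitochondrial chaperones in each library, SFL replicates left and CFL replicates right. Lines join the values of a gene within a line and imply no order of the replicates. SFL replicate 3 is low for most genes, with hspd1 at 172 TPM against 979.8 and 1327 TPM in SFL replicates 1 and 2, while dnajc19 stays at 60.4 TPM.

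DNAJ proteins stimulate the ATPase of HSP70 and choose its clients. Of 28 tested DNAJ genes of the cytosol and other places, 1 was called higher in SFL and 4 in CFL. These are 3.57% and 14.3%, against 11.7% and 8.88% of all genes. The median log2 fold change was -0.05. The vesicle protein dnajc5ab (cysteine string protein) had 55.7, 33.8 and 32.4 TPM in SFL and 10.7, 14.6 and 11.4 TPM in CFL, without overlap (log2 fold change 1.62, SE 0.26, adjusted p in limma = 0.00404). Its relatives dnajc5aa and dnajc5ga were also higher in all SFL libraries and passed the adjusted p (0.0305 and 0.0376) with smaller log2 fold changes of 0.58 and 0.75. The further relative dnajc5gb overlapped, at 29.3, 24.9 and 10.7 TPM in SFL and 13.02, 15.2 and 17.2 TPM in CFL (adjusted p = 0.443). In CFL the called genes were dnajb2, dnajc24, dnajb4 and DNAJA4. The ubiquitin-binding dnajb2 had 23.4, 13.6 and 17.4 TPM in SFL and 74.2, 49.95 and 36.98 TPM in CFL (-1.49, SE 0.31, adjusted p = 0.0113). The diphthamide synthesis protein dnajc24 had 7.15, 6.63 and 6.25 TPM in SFL and 22.7, 16.9 and 14.7 TPM in CFL (-1.29, SE 0.21, adjusted p = 0.0042), and both held their call in all fits without 1 library.

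The remaining calls in CFL were less steady. For DNAJA4 the values were 70.4, 66.8 and 37.9 TPM in SFL and 119, 132 and 95.6 TPM in CFL (-1.01, SE 0.28, adjusted p = 0.0301). Its call was lost without CFL replicate 1, 2 or 3 (adjusted p = 0.0938, 0.112 and 0.0504) or SFL replicate 3 (log2 fold change -0.73) and in the later passages alone (adjusted p = 0.102). The HSP40 gene dnajb4 was low throughout, at 0.48, 1.19 and 1.58 TPM in SFL and 4.49, 3.06 and 3 TPM in CFL (-1.14, SE 0.26, adjusted p = 0.0152). Its call was lost without CFL replicate 1 (adjusted p = 0.0551) or SFL replicate 1 (log2 fold change -0.91) and in the later passages alone (-0.76, adjusted p = 0.074). The heat-inducible HSP40 genes did not pass: dnajb1a had 17.9, 15.3 and 11.97 TPM in SFL and 20.4, 23.04 and 23.1 TPM in CFL (-0.54, SE 0.20, adjusted p = 0.0718), and dnajb1b had 32.1, 24.3 and 16.2 TPM in SFL and 27.4, 23.1 and 19.2 TPM in CFL, overlapping between the lines at 0.02 (SE 0.28) with a sign that turned under both scalings (-0.08 and -0.14). The general HSP70 partners dnaja1, dnaja2a and dnaja2b overlapped between the lines as well, with log2 fold changes of -0.04, 0.00 and -0.21.

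Of 7 DNAJ genes of the ER membrane, which face the cytosol or the lumen, 1 was called, in SFL (14.3%, against 11.7% of all genes). The tail-anchored dnajb12b had 10.4, 11.2 and 7.24 TPM in SFL and 3.48, 3.88 and 4.45 TPM in CFL (1.09, SE 0.22, adjusted p = 0.0097). It fell just below a fold change of 2 without SFL replicate 2 (0.98), under both scalings (0.996 and 0.989) and in the later passages alone (0.96, adjusted p = 0.0949). Its paralog dnajb12a lay on the other side, with higher values in all CFL libraries, 9.75, 9.41 and 10.9 TPM in SFL and 12.8, 13.5 and 13.3 TPM in CFL, without passing the test (-0.37, SE 0.16, adjusted p = 0.115). The related dnajb14 had 36.6, 36.8 and 37.5 TPM in SFL and 54.5, 53.8 and 53.7 TPM in CFL, a small difference with a narrow spread within each line (-0.53, SE 0.14, adjusted p = 0.0259). That adjusted p was under 0.05 in 2 of the 6 fits that left out 1 library.

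BAG proteins release clients from HSP70 and pass them on. Of the 7, bag1, which links HSP70 to the proteasome, had 14.6, 20.5 and 17.1 TPM in SFL and 7, 6.51 and 5.97 TPM in CFL (log2 fold change 1.28, SE 0.19, adjusted p in limma = 0.00301). In the opposite direction bag5 had 4.93, 5.54 and 5.61 TPM in SFL and 13.6, 13.9 and 11.8 TPM in CFL (-1.15, SE 0.17, adjusted p = 0.00295). Both calls held in all fits without 1 library. The autophagy adaptor bag3, a target of HSF1 in mammals, had 72.1, 65.1 and 65 TPM in SFL and 123, 129 and 131 TPM in CFL. Its spread within each line was small and the lines were far apart (-0.91, SE 0.14, adjusted p = 0.00384), just under a fold change of 2, which it passed under both scalings (-1.02 and -1.06). The bag6 gene, whose protein guards tail-anchored proteins, had 26.7, 23.5 and 18.2 TPM in SFL and 13.7, 14.6 and 13.6 TPM in CFL (0.65, SE 0.19, adjusted p = 0.037). The genes bag2 and bag4 were higher in all SFL libraries without passing the test (adjusted p = 0.126 and 0.0524), and bag6l overlapped.

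The small heat shock proteins, which hold unfolded proteins without ATP, gave the largest difference of the group, in hspb1, with uneven SFL replicates. HSP27 (hspb1) had 33.3, 12.4 and 111 TPM in SFL replicates 1 to 3 and 2.79, 0.88 and 1.26 TPM in CFL replicates 1 to 3. The SFL values spanned a wide range, yet the lowest of them was above the highest CFL library (log2 fold change 3.88, SE 0.74, adjusted p in limma = 0.00816), and the call held in all fits without 1 library with log2 fold changes of 3.08 to 4.62. It was lost in the later passages alone (4.23, adjusted p = 0.0593). The muscle gene hspb7 had 0, 0.06 and 4.03 TPM in SFL and 5.99, 8.26 and 12.3 TPM in CFL, with SFL replicate 3 apart from its line (-2.44, SE 0.64, adjusted p = 0.026). Its call was kept without SFL replicate 3 (-3.21, adjusted p = 0.00104) and was lost without any other library (adjusted p of 0.0585 to 0.0851) and in the later passages alone (adjusted p = 0.122). The gene hspb8, the partner of bag3, had 59.95, 13.3 and 16.8 TPM in SFL and 11.5, 27.2 and 10.1 TPM in CFL, overlapping through CFL replicate 2 (0.66, SE 0.61, adjusted p = 0.43). A second gene annotated HSPB1 as well as hspb3 and hspb9 were at 0 in all 6 libraries, and hspb2, hspb6 and hspb15 did not exceed 0.27 TPM.

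The master regulator of the heat shock genes, HSF1, had 34.8, 33.97 and 32 TPM in SFL and 22.2, 20.1 and 12 TPM in CFL. The SFL libraries were nearly level and CFL replicate 3 was the lowest, and the difference passed the adjusted p at 0.90 (SE 0.25) on the log2 scale (adjusted p = 0.0307) and reached a fold change of 2 without CFL replicate 1 (1.06). Its limma adjusted p stayed under 0.05 in only 2 of the 6 fits that left out 1 library (up to 0.0735). The factor hsf2 overlapped between the lines (0.12, SE 0.31, adjusted p = 0.784), and hsf4 stayed near the limit of the filter, at 0.21 to 0.25 TPM in SFL and 0.11 to 0.31 TPM in CFL.

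A list of 36 chaperones and cochaperones outside the symbol rule, among them prefoldin, the HSP90 cochaperones and tcp1, gave 1 call in SFL and 2 in CFL (2.78% and 5.56%, against 11.7% and 8.88% of all genes) and a median log2 fold change of 0.19. At any fold change the adjusted p passed in 10 genes higher in SFL and 3 in CFL (27.8% and 8.33%, against 19.5% and 15.2% of all genes). The libraries did not overlap in 14 genes higher in SFL and 6 in CFL (38.9% and 16.7%, against 29.8% and 23.1% of all genes). Prefoldin subunit pfdn5, which hands actin and tubulin to CCT, had 222, 242 and 233 TPM in SFL and 121, 117 and 100.3 TPM in CFL (1.04, SE 0.15, adjusted p = 0.00298, and 0.96 on the log2 scale without CFL replicate 3). The cyclophilin ppid had 50.9, 75.2 and 32.5 TPM in SFL and 107, 108 and 105 TPM in CFL (-1.08, SE 0.30, adjusted p = 0.0309), and its call was lost in all fits that left out 1 library other than SFL replicate 2. The collagen chaperone serpinh1b (HSP47), which resides in the ER, had 0.20, 0.71 and 0.72 TPM in SFL and 13.4, 13.8 and 12.1 TPM in CFL (-3.21, SE 0.21, adjusted p = 0.00011), a larger log2 fold change toward CFL than that of any gene of the rule, and the call held in all 6 fits that left out 1 library. Its far more abundant paralog serpinh1a had 112, 196 and 169 TPM in SFL and 213, 245 and 188 TPM in CFL. The serpinh1a libraries overlapped between the lines, and the gene did not pass (-0.46, SE 0.24, limma adjusted p = 0.182). Among cochaperones of HSP90 or HSP70, ptges3a, cdc37, st13, fkbp8, sugt1 and unc45a were higher in all SFL libraries, under a fold change of 2. They passed at log2 fold changes of 0.71 to 0.96 and limma adjusted p of 0.015 to 0.023. Each kept this in 3 to 5 of the 6 fits without 1 library. In CFL ppid passed, as given above, and cdc37l1 was higher in all libraries without passing (-0.61, SE 0.22, adjusted p = 0.0729). The cochaperone stip1 was higher in all SFL libraries without passing, at 223, 259.8 and 154 TPM in SFL and 142, 133 and 116 TPM in CFL (0.67, SE 0.23, adjusted p = 0.0619), and fkbp4 overlapped between the lines (0.01, SE 0.21, adjusted p = 0.986).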

How the data were processed

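RNA of 3 SFL and 3 CFL libraries was sequenced as single reads from a stranded polyA library kit. Groups, replicates and passages came from the sample labels. The methods of the study speak of adult tissues, but the labels carry passages, so these were taken for cell line samples. The values deposited by the authors are TPM per gene, which RSEM estimated from STAR alignments to a UCSC genome using gene models of Ensembl (the submitters' processing notes give STAR 2.7.3a and bcl2fastq 2.18, and the assembly is not given in the sources used here). TPM holds no counts, so depth and counting error are unknown and the study's own count test was not possible. All TPM of a library sum to 1000000.

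The 18489 genes reaching 0.2 TPM in 1 or more libraries were compared on log2(TPM + 1), SFL over CFL, with limma 3.58.1 (lmFit, eBayes with trend) in R 4.3.3 and Benjamini-Hochberg adjustment over all of them. A gene was called when its adjusted p was under 0.05 and its change at least 2-fold. Because of the added 1, changes of weakly expressed genes come out too small. The step was tested on simulated data. Tables were made in Python 3.11.15 with numpy 2.4.6 and pandas 2.3.3, figures with matplotlib 3.10.9. Alternatives were pseudocounts of 0.1 and 0.5, quantile normalization, median-ratio scaling, a stricter filter (1 TPM in 3 libraries) and none, a fit without trend, the replicate block, the later passages alone, calls at adjusted p 0.01, calls at any fold, a test against the 2-fold threshold itself (treat), and leaving out each library.

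Genes were named if called, if among fixed anchors (hspa5, hsp90b1, canx, the sensors, HSP70, HSP90, HSF, CCT and the like), if among the 5 highest or the 5 most uneven within a line, and by role lists. The other genes named from the role lists and from the lists outside the symbol rule were chosen after their values were seen. The genes and lists were chosen with earlier results of these data known, so their counts are descriptions. Symbols were matched to RefSeq AstMex3_surface for names only (110 of 115 symbols).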

Additional observations from a re-analysis of the deposited data

How the results depend on the processing

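Counts of calls moved with the settings. Against 8 genes called higher in SFL, the later passages alone, median-ratio scaling and quantile normalization each gave 5, no fold threshold 18, and the fits without 1 library 5 to 8. Against 15 called higher in CFL, the later passages alone gave 9, an adjusted p of 0.01 gave 7, and the fits without 1 library 9 to 16. Testing against that fold itself (treat in limma) called 0 in each direction, with 3 in SFL and 6 in CFL at an unadjusted p under 0.05. Shares of all genes called are given here only for the main fit, with and without the fold threshold, and without SFL replicate 3. The counts in the other settings can therefore not be set against all genes. The pseudocounts, the filters and the fit without trend changed none of these counts by over 1.5 times. Deviations of same-numbered libraries from the mean of their line correlated at -0.225, 0.078 and -0.074. With 3 libraries per line this cannot decide whether the replicate numbers pair the libraries. With the replicate block the counts were 8 and 15, all 8 and 15 shared with the fit without it.

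No called gene turned sign in the settings run. Small differences did: cct3 was at -0.013 in the later passages alone, -0.054 under median-ratio scaling and -0.107 under quantile normalization, and ranged over -0.051 to 0.231 without 1 library. For hsp90ab1 median-ratio scaling gave -0.068, and the fits without 1 library -0.192 to 0.215. The log2 fold change of dnajb1b was -0.082 in the later passages alone, -0.083 under median-ratio scaling and -0.135 under quantile normalization, and -0.20 to 0.27 without 1 library. That of hspb8 was -0.15 in the later passages alone. Without 1 library, cct7 ranged over -0.20 to 0.11, hsp90aa1.2 over -0.642 to 0.051 and hsf2 over -0.17 to 0.37. The causes were not tested. TPM gives no depth, so the counting error of a value is not known.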

Other observations

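In several pairs of gene copies the 2 fold changes had opposite signs. The related genes hspa8 and hspa8b, given above, both passed the test, at log2 fold changes of 1.13 and -2.07 (limma adjusted p = 0.0143 and 0.0113). Of the further pairs given here, both copies passed only in ssr2. The HSP40 copies dnajc11a and dnajc11b had log2 fold changes of 0.70 and -0.56 (limma adjusted p = 0.0621 and 0.054), and dnajb12a and dnajb12b had -0.37 and 1.09 (limma adjusted p = 0.115 and 0.0097). For the translocon-associated protein ssr2, the copy ENSAMXG00000010200 had 121, 226 and 193 TPM in SFL and 313, 407 and 279.9 TPM in CFL (log2 fold change -0.92, limma adjusted p = 0.0415), and the copy ENSAMXG00000036600 had 20.5, 40.7 and 33.8 TPM in SFL and 12.9, 15.5 and 9.59 TPM in CFL (1.23, limma adjusted p = 0.0204). For ssr4, the copy annotated SSR4 had 3.50, 5.02 and 2.69 TPM in SFL and 9.81, 17.8 and 15.4 TPM in CFL (-1.69, limma adjusted p = 0.0055), and the more abundant copy ssr4 had 93.0, 148 and 107 TPM in SFL and 73.3, 92.6 and 81.3 TPM in CFL (0.47, limma adjusted p = 0.138). These pairs were picked after their values were seen, and near-identical copies can share reads.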
